A study of Mus musculus with 8 samples.

Results

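Open chromatin of proNeu2 cells was compared with that of cMoP cells, both sorted as progenitors from mouse bone marrow (BM). The comparison used the 4 libraries that the sample names give to these groups, 2 of proNeu2 and 2 of cMoP, of 8 libraries in the series. The other 4 libraries, 2 of proNeu1 and 2 of GMP-MoP, entered the fit to estimate the spread. Per the labels' protocols, 5000 sorted cells went into each tube, and DNA was cut and tagged with the Tn5 transposase (ATAC-seq). Not given in the sources used here are the strain, genotype and age of the mice and the sorting gates. Each group has 2 biological replicates by its labels, which do not say that they are separate animals, and the p-values cover only the spread between libraries, which may be technical.

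Neutrophils and monocytes share a granulocyte-monocyte precursor. The cMoP (common monocyte progenitor) gives rise to monocytes, and proNeu1 and proNeu2 are successive early stages of the neutrophil branch. C/EBP factors and the repressor GFI1 drive the neutrophil branch and its granule genes, IRF8 and KLF4 drive the monocyte branch, and PU.1 serves both. Neutrophil granules are filled in stages: enzymes such as myeloperoxidase first, then lactoferrin and the cathelicidin, then gelatinase.

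The files gave a count of reads in each of the same 61196 regions for every library. Levels are given as CPM, which divides counts by the library's total after TMM correction. Replicates 1 and 2 follow in that order, and n = 2 in each group throughout. Each region was tied to the closest protein-coding gene within 50 kb, which says nothing of which gene it regulates. A region is called when its adjusted p in edgeR's quasi-likelihood F test is under 0.05, and higher or lower means in proNeu2 relative to cMoP. In bulk libraries, a change in the share of cells with an open region and a change in how open it is per cell cannot be told apart.

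Promoter sequence is shown for 6 of the 57 lineage genes whose strongest region was followed one by one, the 3 with the largest change in each direction at their promoter window, since these windows lie inside the regions that carry the comparison. Each line gives the 250 bases before the RefSeq start site (GRCm38.p6, the mm10 assembly) on the strand of the gene. The first 3 lay in regions higher in proNeu2, at chr9:110419558-110419807 (plus strand), chr3:90695722-90695971 (minus strand) and chr2:32387740-32387989 (minus strand). The other three lay in regions lower in proNeu2, at chr8:120736108-120736357, chr7:55767934-55768183 and chr9:7558179-7558428 (plus strand each). Capitals mark matches, on either strand, to the C/EBP motif TTGCNNAA or the PU.1 motif GAGGAAGT; no window matched the IRF motif AANNGAAA.
Ngp promoter: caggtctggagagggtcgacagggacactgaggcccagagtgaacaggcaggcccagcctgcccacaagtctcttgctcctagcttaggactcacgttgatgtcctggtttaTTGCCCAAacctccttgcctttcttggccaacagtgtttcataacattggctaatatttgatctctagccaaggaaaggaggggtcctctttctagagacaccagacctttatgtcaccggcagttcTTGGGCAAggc
S100a9 promoter: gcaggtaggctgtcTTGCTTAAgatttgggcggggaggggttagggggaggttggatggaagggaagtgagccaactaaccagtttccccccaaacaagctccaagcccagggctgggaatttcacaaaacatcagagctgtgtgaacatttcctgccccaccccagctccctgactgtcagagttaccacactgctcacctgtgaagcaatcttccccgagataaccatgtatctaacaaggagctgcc
Lcn2 promoter: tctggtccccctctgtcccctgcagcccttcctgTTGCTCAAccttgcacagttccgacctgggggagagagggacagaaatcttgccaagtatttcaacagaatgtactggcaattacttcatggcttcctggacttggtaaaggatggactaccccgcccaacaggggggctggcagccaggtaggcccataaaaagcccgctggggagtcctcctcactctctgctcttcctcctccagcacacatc
Irf8 promoter: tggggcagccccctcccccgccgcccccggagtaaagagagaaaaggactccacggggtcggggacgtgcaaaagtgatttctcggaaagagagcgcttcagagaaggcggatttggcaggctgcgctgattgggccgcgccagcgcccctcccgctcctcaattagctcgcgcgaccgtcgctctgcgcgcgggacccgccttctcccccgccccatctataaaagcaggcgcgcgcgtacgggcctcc
Siglech promoter: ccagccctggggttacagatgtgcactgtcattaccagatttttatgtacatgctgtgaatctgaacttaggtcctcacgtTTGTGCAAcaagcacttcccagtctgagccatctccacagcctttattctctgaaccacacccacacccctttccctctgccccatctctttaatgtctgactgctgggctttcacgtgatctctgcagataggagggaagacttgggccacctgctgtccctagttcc
Mmp8 promoter: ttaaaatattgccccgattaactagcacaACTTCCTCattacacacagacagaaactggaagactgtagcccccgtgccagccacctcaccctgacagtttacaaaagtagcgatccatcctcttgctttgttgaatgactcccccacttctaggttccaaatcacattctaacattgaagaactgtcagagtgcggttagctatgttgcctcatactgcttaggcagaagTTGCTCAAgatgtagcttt
The Ngp promoter held 2 C/EBP matches, and those of S100a9, Lcn2, Siglech and Mmp8 held 1 each. The Mmp8 promoter also held 1 PU.1 match, which did not overlap its C/EBP match. The Irf8 promoter, of 70.0% GC over the 300-base table window, held no match to the 3 motifs. A C/EBP match thus stood in promoters that were higher and in promoters that were lower.

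Mature microRNA sequences are shown for 4 microRNAs known in myeloid cells whose gene lay within 5 kb of a region called in this comparison, with the seed (bases 2 to 8) in capitals. They are from RefSeq, and the microRNAs were picked after the values were seen.
mmu-miR-223-3p: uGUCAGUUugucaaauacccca
mmu-miR-142a-3p: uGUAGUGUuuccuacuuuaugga
mmu-miR-155-5p: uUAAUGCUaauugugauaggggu
mmu-miR-511-3p: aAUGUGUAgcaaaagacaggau
The 4 seeds all differ from each other.

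The libraries held 1785907 and 1631168 counts in the regions for proNeu2, and 1907810 and 1896924 for cMoP. The median region held 12 and 11 counts in proNeu2 and 16 and 18 in cMoP, so small changes at single regions were often not detectable. Library ranks over regions correlated at 0.941 between the proNeu2 libraries, at 0.929 between the cMoP libraries and at 0.569 to 0.609 between the groups (Spearman's rho across regions, which are not independent). The 2 proNeu2 libraries stood apart by how close they were: their chi-square per degree of freedom was 1.05 over all regions (p = 1.41e-17) and 1.01 over regions with at least 80 summed counts (p = 0.182). The cMoP libraries gave 1.17 and 1.30 on the same scales. The labels call them biological replicates and they were kept as 2 samples, which these values of read counts do not show by themselves; counting them as 1 gave 25905 calls in place of 25009.

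Of 47506 tested regions, 11991 were higher in proNeu2 (25.2%) and 13018 were lower (27.4%), so 52.6% were called. Higher and lower calls differed in size. The higher calls had a median log2 fold change of 1.04, and 52.8% of them changed by at least 2 fold. The lower calls had a median of -1.82, and 85.2% of them changed by at least 2 fold. At 8 fold or more there were 948 higher and 2582 lower regions. The groups did not overlap at 76.3% of tested regions and at 99.6% of called ones. Offsets that follow the level of a region (loess) left 22163 calls, of which 18759 were shared with the 25009, and scaling by total counts alone gave 9889 higher and 14569 lower calls, with a median log2 over all tested regions of -0.15 in place of -0.021. DESeq2 made 14505 of the 25009 calls and no others, so counts of called regions are smaller by that test.

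**Figure D1:**
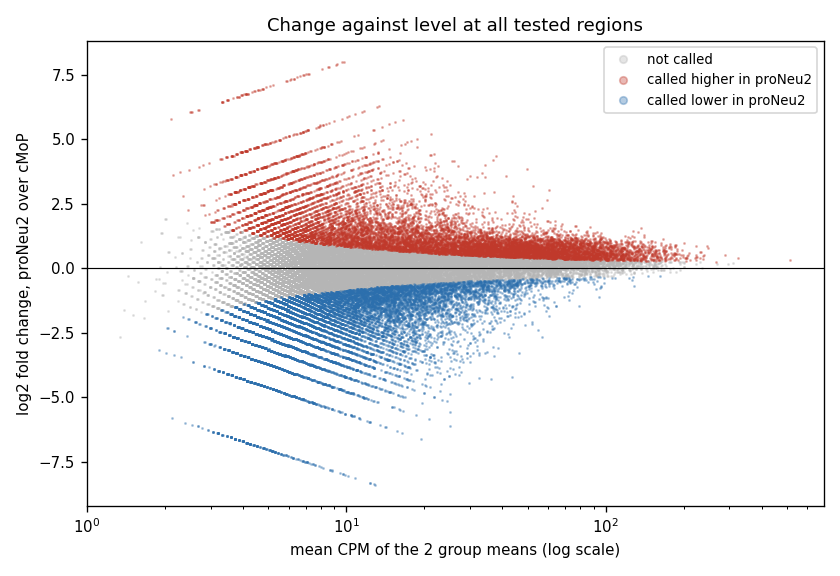
Each point is 1 of the 47506 tested regions, at the mean CPM of the group means (log axis) and the log2 fold change of proNeu2 over cMoP. Red points are the 11991 regions called higher in proNeu2, blue points the 13018 called lower, and grey points were not called; the lower calls reach larger changes and lie at lower levels.

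Most called regions of a short pick of neutrophil and monocyte lineage markers lay in the direction that the names of the groups give. The pick was made with earlier results of these data known. Neutrophil genes outside it, such as Ctsc and Mmp8, had mostly lower regions, and Ctsg and Cybb had no call. For 9 neutrophil lineage markers, 28 regions were tested, of which 21 were higher in proNeu2 and 2 were lower, beside 25.2% and 27.4% of all tested regions. All 30 regions linked to these markers, tested or not, summed to 1118 and 1140 CPM in proNeu2, against 402 and 377 CPM in cMoP. For 7 monocyte lineage markers, 36 regions were tested, of which 2 were higher and 18 were lower. All 40 linked regions, tested or not, summed to 431 and 409 CPM in proNeu2, against 759 and 696 CPM in cMoP. For 3 dendritic cell markers (Zbtb46, Siglech and Flt3), 9 of 18 tested regions were lower and 0 were higher. Their 21 linked regions, tested or not, summed to 189 and 195 CPM in proNeu2 against 398 and 400.0 CPM in cMoP. B cell, T and NK cell, and erythroid and megakaryocyte markers had 1, 2 and 1 called regions of only 5, 2 and 4 tested, with Cd79a and Cd3e without any region. Of the T and NK cell calls 1 was higher and 1 lower, and the others were higher. Mast cell, basophil and eosinophil markers had 3 lower regions, all at Gata2, of 6 tested, and none of the 3 was called with loess offsets or by DESeq2. The part of such cells in the lists described below was not tested.

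**Figure D2:**
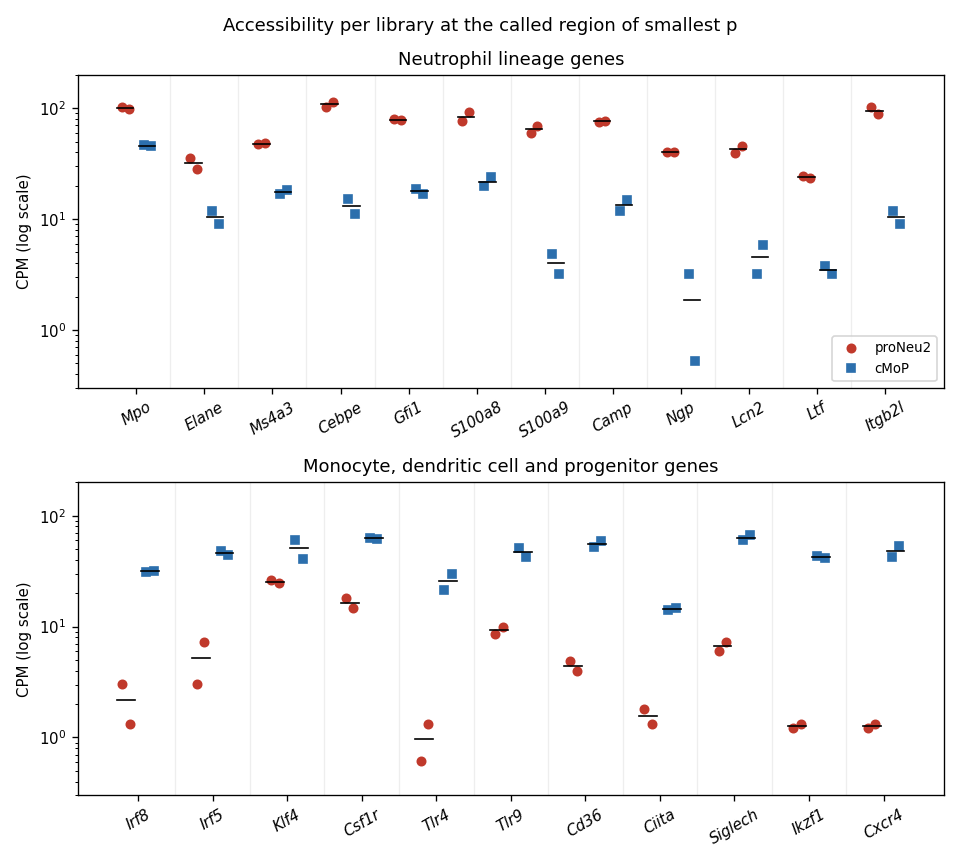
CPM per library on a log axis, proNeu2 (red circles) left of cMoP (blue squares) for each gene, with a black bar at the mean of the 2 libraries, at the called region of smallest p among those named here. Genes were picked for each row and regions by their p, so the side on which proNeu2 lies follows from that choice. In the upper row proNeu2 lies above cMoP, with the widest gap at Ngp. In the lower row it lies below, with the widest gap at Cxcr4. The lower row also holds Cxcr4 and Tlr4 of the neutrophil receptor list. Genes with regions against the lean of their list, such as Mmp8, Ctsc, Nr4a1 and Egr2, are not shown.

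Regions of neutrophil transcription factor genes were higher more often than lower. Of 93 regions 38 were higher (40.9%) and 17 lower (18.3%), beside 25.2% and 27.4% of all tested regions. Their median log2 was 0.47, beside -0.021 for all tested regions. Cebpe encodes C/EBPε, which is needed for the later granule genes. Its region chr14:54705441-54707330, 3.03 kb outside the gene, had 103 and 114 CPM in proNeu2 and 15.1 and 11.1 CPM in cMoP (log2 fold change 3.04, SE 0.21, adjusted p = 4.45e-34). The second Cebpe region, inside the gene, had 68.1 and 79.0 CPM in proNeu2 and 14.5 and 17.4 CPM in cMoP (log2 fold change 2.19, SE 0.21, adjusted p = 2.2e-19). Both Cebpe regions thus lay above cMoP in both libraries with no overlap. The start-site region of Cebpb, another C/EBP factor, had 99.7 and 124 CPM in proNeu2 and 62.9 and 57.5 CPM in cMoP (log2 fold change 0.89, SE 0.15, adjusted p = 1.15e-07); 4 of 9 Cebpb regions were higher and 0 were lower. Cebpa and Cebpd, which act in early and late myeloid cells, showed no call at their strongest regions. The Cebpa start-site region had 74.8 and 92.3 CPM in proNeu2 and 82.2 and 78.6 CPM in cMoP (log2 fold change 0.05, SE 0.15, adjusted p = 0.802), so the groups overlapped. The Cebpd region had 71.8 and 104 CPM in proNeu2 and 82.8 and 70.7 CPM in cMoP (log2 fold change 0.19, SE 0.15, adjusted p = 0.296), again with overlap.

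Spi1 encodes PU.1. Its strongest region had 47.4 and 47.8 CPM in proNeu2 and 44.6 and 40.1 CPM in cMoP (log2 fold change 0.17, SE 0.19, adjusted p = 0.466). A second Spi1 region inside the gene, chr2:91088839-91089778, had 35.3 and 35.2 CPM in proNeu2 and 7.53 and 2.64 CPM in cMoP (log2 fold change 2.78, SE 0.32, adjusted p = 1.47e-14). One Spi1 region was therefore near level while another differed by several fold. Trib1, a regulator of C/EBPα stability, had 5 of 5 tested regions higher, and Sox4, a factor of early progenitors, had 2 of 3 lower; both were picked after their counts were seen. Runx1 is a core blood factor with 7 higher and 2 lower regions of 18. Its strongest region had 109 and 92.9 CPM in proNeu2 and 75.3 and 56.0 CPM in cMoP (log2 fold change 0.62, SE 0.15, adjusted p = 2.02e-04), and this call ended with loess offsets (adjusted p = 0.166).

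Primary granule genes encode the first enzymes packed by neutrophil precursors. Of their 38 regions (median log2 0.51), 16 were higher (42.1%) and 6 lower (15.8%), beside 25.2% and 27.4% of all tested regions. Of 13 genes with a tested region, 9 had higher calls only, 2 had calls in both directions and 2 had none. Mpo encodes myeloperoxidase, and its start-site region chr11:87793055-87794324 had 103 and 98.2 CPM in proNeu2 and 46.2 and 45.9 CPM in cMoP (log2 fold change 1.13, SE 0.16, adjusted p = 3.34e-10). Elane encodes neutrophil elastase, and its start-site region chr10:79886018-79886645 had 35.9 and 28.5 CPM in proNeu2 and 11.8 and 8.97 CPM in cMoP (log2 fold change 1.63, SE 0.28, adjusted p = 1.28e-07). Both start-site regions held reads in both cMoP libraries, and both proNeu2 libraries lay above both cMoP libraries. Ms4a3, a gene that marks granulocyte-monocyte progeny, had 47.4 and 48.5 CPM in proNeu2 and 16.7 and 18.5 CPM in cMoP at its start site (log2 fold change 1.44, SE 0.23, adjusted p = 8.55e-09). The strongest region near Prtn3, for proteinase 3, had 72.4 and 61.7 CPM in proNeu2 and 39.8 and 48.6 CPM in cMoP (log2 fold change 0.60, SE 0.17, adjusted p = 0.00190). That call ended with loess offsets (adjusted p = 0.225) and with DESeq2 (adjusted p = 0.0551).

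Other primary granule genes were level or lower. Ctsg, for cathepsin G, had 29.8 and 33.9 CPM in proNeu2 and 32.8 and 35.4 CPM in cMoP (log2 fold change -0.10, SE 0.21, adjusted p = 0.710). Ctsc encodes the protease that activates the granule serine proteases, and 5 of its 8 regions were lower and 1 was higher. The Ctsc start-site region chr7:88277036-88278644 had 73.6 and 67.0 CPM in proNeu2 and 119.9 and 119 CPM in cMoP (log2 fold change -0.76, SE 0.15, adjusted p = 2.2e-06), so both proNeu2 libraries lay below cMoP. Cst7 encodes cystatin F, an inhibitor of cathepsins, and its start-site region had 20.1 and 12.6 CPM in proNeu2 and 38.7 and 39.6 CPM in cMoP (log2 fold change -1.24, SE 0.24, adjusted p = 3.54e-06). Thus 5 of the 6 lower regions of the list were those of Ctsc.

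Genes of later granules and neutrophil maturation had the largest median of the 14 lists (log2 0.85). Of their 82 regions 46 were higher (56.1%) and 7 lower (8.54%), beside 25.2% and 27.4% of all tested regions. Of 26 genes with a tested region, 20 had higher calls only, 4 both directions, 1 lower calls only and 1 none. S100a8 and S100a9 encode the subunits of calprotectin, the abundant calcium-binding protein of neutrophils. The S100a9 start-site region chr3:90695381-90696322 had 60.2 and 69.0 CPM in proNeu2 and 4.84 and 3.17 CPM in cMoP (log2 fold change 3.99, SE 0.29, adjusted p = 1.5e-30). The S100a8 start-site region chr3:90668526-90669606 had 76.0 and 91.6 CPM in proNeu2 and 19.9 and 23.8 CPM in cMoP (log2 fold change 1.93, SE 0.19, adjusted p = 2.16e-18). Both differed with no overlap, and S100a9 held the lower cMoP level and the larger change. Of 8 regions linked to the pair, 6 were higher and none was lower by this test; the 2 that were not called lay 12.6 and 14.0 kb outside S100a9.

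Among the antimicrobial granule proteins named here, Ngp (neutrophilic granule protein) had the largest log2 fold change. Its start-site region chr9:110419368-110420176 had 40.1 and 40.5 CPM in proNeu2 and 3.23 and 0.528 CPM in cMoP (log2 fold change 4.38, SE 0.38, adjusted p = 5.25e-23). Its second region, 3.97 kb outside the gene, had 35.3 and 37.2 CPM in proNeu2 and 2.15 and 0.528 CPM in cMoP (log2 fold change 4.69, SE 0.42, adjusted p = 5.67e-22). Both Ngp regions were close to closed in cMoP. Camp encodes the cathelicidin, and its start-site region chr9:109849058-109850121 had 75.4 and 77.0 CPM in proNeu2 and 11.8 and 14.8 CPM in cMoP (log2 fold change 2.51, SE 0.22, adjusted p = 3.51e-23). Lcn2 encodes lipocalin 2, which binds bacterial siderophores, and its start-site region chr2:32387412-32388476 had 39.5 and 45.8 CPM in proNeu2 and 3.23 and 5.81 CPM in cMoP (log2 fold change 3.21, SE 0.31, adjusted p = 3.67e-19). Ltf encodes lactoferrin, and its start-site region chr9:111018773-111019787 had 24.3 and 23.2 CPM in proNeu2 and 3.76 and 3.17 CPM in cMoP (log2 fold change 2.75, SE 0.38, adjusted p = 7.96e-11). The strongest Ltf region, 3.08 kb outside the gene, was level, at 31.6 and 30.5 CPM in proNeu2 and 31.7 and 31.1 CPM in cMoP (log2 fold change -0.015, SE 0.22, adjusted p = 0.959). One Ltf region, 8.96 kb outside the gene, was lower, at 1.82 and 1.33 CPM in proNeu2 and 9.68 and 9.50 CPM in cMoP (log2 fold change -2.54, SE 0.61, adjusted p = 1.55e-04).

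Itgb2l and Cd177 encode surface proteins of the maturing neutrophil and had higher regions, while Itgam, another one, had 1 higher and 2 lower of 6. Itgb2l encodes an integrin beta chain, and the region inside its gene, chr16:96439315-96440519, had 102 and 88.3 CPM in proNeu2 and 11.8 and 8.97 CPM in cMoP (log2 fold change 3.18, SE 0.22, adjusted p = 2.95e-33). Cd177, a neutrophil surface glycoprotein, had 40.1 and 47.1 CPM in proNeu2 and 4.84 and 5.81 CPM in cMoP at its start site (log2 fold change 3.01, SE 0.30, adjusted p = 1.67e-18). Both lay far above cMoP in each library. The metalloproteinase genes differed from each other. Mmp9 encodes gelatinase B, and 3 of its 3 regions were higher, the strongest at 52.9 and 46.5 CPM in proNeu2 and 29.0 and 30.1 CPM in cMoP (log2 fold change 0.75, SE 0.20, adjusted p = 7.81e-04). Mmp8 encodes neutrophil collagenase, and 2 of its 3 regions were lower. The Mmp8 start-site region chr9:7557936-7558876 had 10.9 and 9.29 CPM in proNeu2 and 40.3 and 47.0 CPM in cMoP (log2 fold change -2.10, SE 0.27, adjusted p = 1.88e-12). It was the one gene of this list with lower calls only, and Cybb, for the large subunit of the phagocyte oxidase, was the one with no call in 5 tested regions.

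Neutrophil receptor and signalling genes did not lean as the granule genes did. Of 59 regions 15 were higher (25.4%) and 9 lower (15.3%), beside 25.2% and 27.4% of all tested regions. The median log2 was 0.05, which turned to -0.08 with total-count scaling and was 0.20 with loess offsets. Csf3r encodes the G-CSF receptor. Its start-site region chr4:126024042-126025190 had 55.3 and 47.1 CPM in proNeu2 and 18.8 and 20.6 CPM in cMoP (log2 fold change 1.38, SE 0.22, adjusted p = 1.19e-08), while its strongest region was not called, at 34.1 and 43.8 CPM in proNeu2 and 32.8 and 34.8 CPM in cMoP (log2 fold change 0.20, SE 0.21, adjusted p = 0.432). Cxcr2, a receptor for neutrophil-attracting chemokines, had a region 5.55 kb outside the gene with 20.7 and 19.9 CPM in proNeu2 and 4.30 and 0.528 CPM in cMoP (log2 fold change 3.04, SE 0.44, adjusted p = 3.92e-10). Ltb4r1, a leukotriene B4 receptor, had 75.4 and 74.3 CPM in proNeu2 and 31.2 and 26.4 CPM in cMoP (log2 fold change 1.38, SE 0.19, adjusted p = 4.98e-11). These 3 receptors had regions above cMoP with no overlap. In the other direction, a region 15.5 kb from Cxcr4, the receptor that holds cells in the marrow, had 1.22 and 1.33 CPM in proNeu2 and 42.5 and 52.8 CPM in cMoP (log2 fold change -5.15, SE 0.41, adjusted p = 1.13e-26), yet 3 of the other 8 Cxcr4 regions were higher. Tlr4, the lipopolysaccharide receptor, had 3 of 6 regions lower, and the region of smallest p had 0.608 and 1.33 CPM in proNeu2 and 21.5 and 30.1 CPM in cMoP, which are 3 and 97 summed counts and a cMoP over proNeu2 ratio of 27.1 (95% exact counting interval 9.01 to 134).

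**Figure D3:**
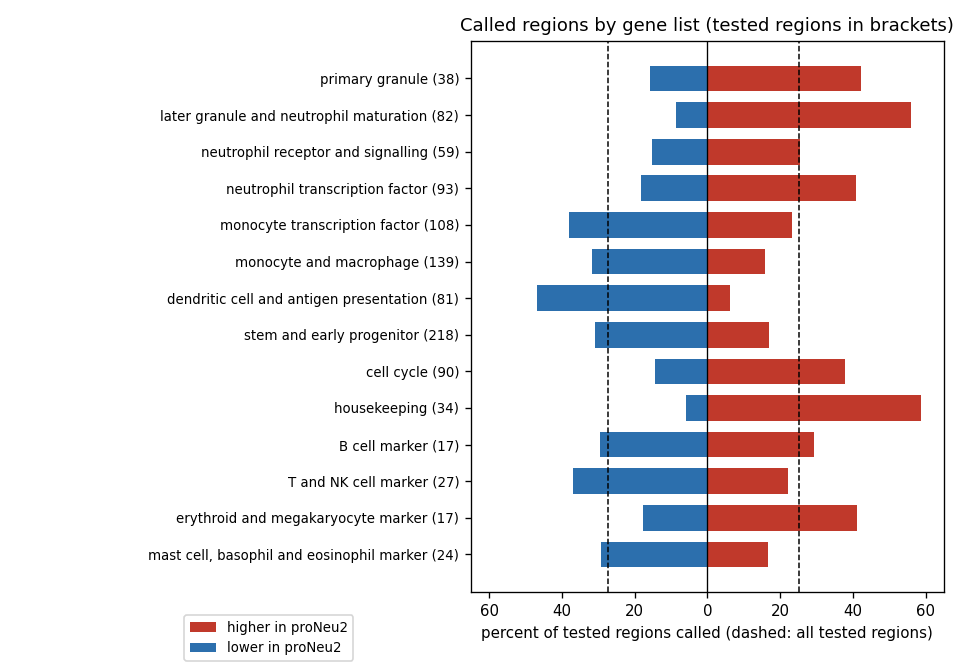
Percent of tested regions called for each gene list, higher in proNeu2 to the right (red) and lower to the left (blue), with the number of tested regions in brackets and dashed lines at the 25.2% and 27.4% of all tested regions. The later granule list reaches far past the right line, and the dendritic cell list far past the left one; the housekeeping list also reaches far to the right.

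Monocyte transcription factor genes leaned the other way (median log2 -0.38). Of 108 regions 25 were higher (23.1%) and 41 lower (38.0%), beside 25.2% and 27.4% of all tested regions. DESeq2 called 13 higher and 25 lower. Irf8 encodes the factor that directs progenitors toward monocytes and dendritic cells, and 7 of its 9 regions were lower, 4 by DESeq2. The Irf8 start-site region chr8:120735825-120736872 had 3.04 and 1.33 CPM in proNeu2 and 31.2 and 31.7 CPM in cMoP (log2 fold change -3.78, SE 0.40, adjusted p = 1.58e-16). Its strongest region, chr8:120792350-120793557, 56.6 kb downstream of the first start site, had 20.7 and 17.3 CPM in proNeu2 and 53.8 and 53.3 CPM in cMoP (log2 fold change -1.49, SE 0.22, adjusted p = 1.14e-09); a myeloid Irf8 enhancer is known at about this distance. Both were lower with no overlap, and the start site was the more closed. Klf4 had 3 of 3 regions lower, the start-site region at 26.1 and 24.6 CPM in proNeu2 and 60.7 and 40.6 CPM in cMoP (log2 fold change -0.99, SE 0.21, adjusted p = 2.33e-05). Irf5, a factor of inflammatory gene activation, had 4 of 4 lower, the strongest at 3.04 and 7.30 CPM in proNeu2 and 47.8 and 43.8 CPM in cMoP (log2 fold change -3.15, SE 0.31, adjusted p = 5.19e-19). At Klf4 and Irf5 every library of proNeu2 lay below every library of cMoP at these regions.

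Not all monocyte factors were lower. Nr4a1, which is needed for the patrolling monocytes, had 3 of 5 regions higher and 1 lower, the strongest at 79.0 and 79.7 CPM in proNeu2 and 40.3 and 33.8 CPM in cMoP (log2 fold change 1.10, SE 0.18, adjusted p = 1.75e-08). Egr2 had a region 30.1 kb from the gene with 48.0 and 54.4 CPM in proNeu2 and 16.1 and 14.8 CPM in cMoP (log2 fold change 1.72, SE 0.23, adjusted p = 2.09e-11). These regions were higher in both proNeu2 libraries. Zeb2 had 3 higher and 3 lower of 7 by edgeR and 0 and 1 by DESeq2, and its start-site region had 32.8 and 43.8 CPM in proNeu2 and 29.6 and 17.9 CPM in cMoP (log2 fold change 0.68, SE 0.22, adjusted p = 0.00634), a call that ended with DESeq2 (adjusted p = 0.127) and when either group lost its replicate 2 (adjusted p = 0.126 and 0.208).

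Of 139 regions of monocyte and macrophage genes, 22 were higher (15.8%) and 44 lower (31.7%, beside 27.4% of all tested regions), with a median log2 of -0.40. Loess offsets gave a median of -0.22 with 35 lower, and DESeq2 called 10 higher and 26 lower. Without replicate 2 of cMoP the number higher was 14. Of 36 genes with a tested region, 18 had lower calls only, 9 both directions, 6 higher calls only and 3 none. Csf1r encodes the M-CSF receptor, and 1 of its 4 regions was lower and none higher. That region, inside the gene at chr18:61107550-61109239, had 18.2 and 14.6 CPM in proNeu2 and 63.4 and 61.2 CPM in cMoP (log2 fold change -1.91, SE 0.22, adjusted p = 1.41e-14). The other 3 Csf1r regions had log2 fold changes between -0.46 and -0.16 (SE 0.25 to 0.36) and were not called. The call thus stood at 1 element, and smaller changes of the same direction at the others may have gone undetected. Cd36, a scavenger receptor, had 4.86 and 3.98 CPM in proNeu2 and 52.1 and 59.1 CPM in cMoP (log2 fold change -3.62, SE 0.31, adjusted p = 4.76e-24). Fcgr1 had 1 higher and 2 lower of 4 regions. A region 6.40 kb from Fcgr1, the high-affinity IgG receptor, had 2.43 and 4.65 CPM in proNeu2 and 46.8 and 38.5 CPM in cMoP (log2 fold change -3.58, SE 0.34, adjusted p = 4.92e-20). The strongest Fcgr1 region was the higher one, at 31.0 and 39.8 CPM in proNeu2 and 27.4 and 20.6 CPM in cMoP (log2 fold change 0.56, SE 0.23, adjusted p = 0.0310), a call that ended with loess offsets (adjusted p = 0.150) and with DESeq2 (adjusted p = 0.241). Mrc1, the mannose receptor of macrophages, had 5 of 7 regions lower and none higher.

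Several genes read as monocyte markers had regions that were level or higher. Ccr2, the receptor that brings monocytes out of the marrow, had 19.5 and 16.6 CPM in proNeu2 and 15.6 and 21.1 CPM in cMoP at its strongest region (log2 fold change -0.023, SE 0.28, adjusted p = 0.952), although 2 of its 5 regions were lower, 1 by DESeq2. The strongest Cx3cr1 region had 43.8 and 51.1 CPM in proNeu2 and 32.3 and 27.4 CPM in cMoP (log2 fold change 0.66, SE 0.20, adjusted p = 0.00331). The strongest Ly6c2 region, 20.9 kb from the gene, had 39.5 and 55.8 CPM in proNeu2 and 34.4 and 30.1 CPM in cMoP (log2 fold change 0.55, SE 0.20, adjusted p = 0.0143). Both were higher in proNeu2, and both calls ended with loess offsets (adjusted p = 0.0818 and 0.326) and with DESeq2 (adjusted p = 0.0811 and 0.157). Sirpa, an inhibitory receptor of phagocytes, had 121 and 111 CPM in proNeu2 and 53.2 and 51.2 CPM in cMoP (log2 fold change 1.15, SE 0.15, adjusted p = 2.35e-11). Tgfbi, an extracellular matrix protein of monocytes, had 43.8 and 44.5 CPM in proNeu2 and 14.5 and 7.92 CPM in cMoP (log2 fold change 1.97, SE 0.26, adjusted p = 6.06e-12). Each of these last regions was higher in proNeu2 with no overlap, but Sirpa also had 1 lower call in 6 regions and Tgfbi 1 in 10.

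Dendritic cell and antigen presentation genes had the lowest median of the 14 lists (log2 -0.82). Of their 81 regions 38 were lower (46.9%) and 5 higher (6.17%), beside 27.4% and 25.2% of all tested regions. Loess offsets gave a median of -0.51 with 27 lower and 7 higher, and DESeq2 called 29 lower and 3 higher. Of 28 genes with a tested region, 16 had lower calls only, 2 both directions, 3 higher calls only and 7 none. Siglech marks plasmacytoid dendritic cells and both its regions were lower. Its strongest region, chr7:55784158-55785224, 4.71 kb outside the gene, had 6.08 and 7.30 CPM in proNeu2 and 60.2 and 66.5 CPM in cMoP (log2 fold change -3.23, SE 0.27, adjusted p = 8.5e-25), and its start-site region had 1.82 and 2.66 CPM in proNeu2 and 24.2 and 29.0 CPM in cMoP (log2 fold change -3.54, SE 0.42, adjusted p = 1.24e-13). Tlr9, the receptor for unmethylated DNA, had 8.51 and 9.96 CPM in proNeu2 and 51.6 and 42.8 CPM in cMoP (log2 fold change -2.35, SE 0.27, adjusted p = 5.63e-15). Ciita, the master activator of MHC class II genes, had 2 of 2 regions lower, the strongest at 1.82 and 1.33 CPM in proNeu2 and 14.0 and 14.8 CPM in cMoP (log2 fold change -3.12, SE 0.53, adjusted p = 1.07e-07). All these regions were lower in both proNeu2 libraries. The class II genes H2-Aa, H2-Ab1, H2-Eb1, H2-DMb1 and H2-DMb2 had 6 tested regions between them, and the 2 called by the edgeR test were those of H2-Ab1, 1 in each direction. The strongest Cd74 region, for the invariant chain, was not called, at 20.7 and 15.3 CPM in proNeu2 and 26.3 and 15.8 CPM in cMoP (log2 fold change -0.22, SE 0.27, adjusted p = 0.515). Another of the 3 Cd74 regions was lower. H2-DMa was higher, at 57.2 and 65.0 CPM in proNeu2 and 30.6 and 36.9 CPM in cMoP (log2 fold change 0.85, SE 0.19, adjusted p = 5.12e-05). Flt3, the receptor that sustains dendritic cell precursors, had 6 of 10 regions lower, though its strongest was not called, at 29.2 and 33.2 CPM in proNeu2 and 39.8 and 40.6 CPM in cMoP (log2 fold change -0.37, SE 0.21, adjusted p = 0.127), except with loess offsets (adjusted p = 0.0129), total-count scaling and a minimum count of 30, where it was lower.

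Stem and early progenitor genes had 37 higher (17.0%) and 67 lower (30.7%, beside 27.4% of all tested regions) of 218 regions. The median log2 was -0.25, and -0.10 with loess offsets; DESeq2 called 19 higher and 45 lower. Erg and Ets1, of the ETS factor family, had regions that were higher. Erg, a stem and progenitor factor, had 10 higher and 2 lower of 22, and a region 8.16 kb outside the gene, chr16:95349392-95351011, had 77.8 and 71.0 CPM in proNeu2 and 16.1 and 8.97 CPM in cMoP (log2 fold change 2.57, SE 0.22, adjusted p = 3.64e-23). Within Ets1, the region chr9:32711943-32713044 had 54.7 and 41.8 CPM in proNeu2 and 1.61 and 3.69 CPM in cMoP (log2 fold change 4.15, SE 0.34, adjusted p = 1.12e-25). The strongest Ets1 region was not called, at 63.8 and 54.4 CPM in proNeu2 and 59.1 and 61.8 CPM in cMoP (log2 fold change -0.028, SE 0.17, adjusted p = 0.903), though loess offsets made it lower (log2 -0.40, adjusted p = 0.0225). Etv6, another ETS gene, was mixed, with 4 higher and 8 lower of 29 by edgeR and 0 and 5 by DESeq2, and its region of smallest p had 6.08 and 5.97 CPM in proNeu2 and 52.1 and 45.9 CPM in cMoP (log2 fold change -3.01, SE 0.29, adjusted p = 2.36e-19). Ikzf1, the lymphoid and myeloid factor Ikaros, had 5 lower and 1 higher of 15, and a region 8.52 kb outside the gene, chr11:11781454-11782332, had 1.22 and 1.33 CPM in proNeu2 and 43.5 and 41.2 CPM in cMoP (log2 fold change -4.98, SE 0.42, adjusted p = 4.47e-24). That region was open in both cMoP libraries and near closed in both proNeu2 libraries. Kit and Cd34, surface markers of early progenitors, were not called at their strongest regions. In all, Kit had 1 higher and 2 lower of 4 regions, and Cd34 1 higher and 5 lower of 9, or 0 and 2 by DESeq2. Kit had 54.1 and 54.4 CPM in proNeu2 and 49.99 and 37.5 CPM in cMoP (log2 fold change 0.31, SE 0.18, adjusted p = 0.143), and Cd34 had 51.7 and 53.8 CPM in proNeu2 and 65.0 and 62.3 CPM in cMoP (log2 fold change -0.27, SE 0.17, adjusted p = 0.172). That Cd34 region was called lower with loess offsets (log2 -0.65, adjusted p = 1.84e-04), and also with total-count scaling and at a minimum count of 30.

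Cell cycle genes had 34 higher (37.8%) and 13 lower (14.4%) of 90 regions, beside 25.2% and 27.4% of all tested regions. The median log2 was 0.25, and 0.02 with loess offsets, which left 22 higher and 10 lower. DESeq2 called 11 higher and 8 lower. Ccnd3, a D-type cyclin, had 7 of 8 regions higher, 2 by DESeq2, led by 57.2 and 69.0 CPM in proNeu2 and 28.0 and 30.6 CPM in cMoP (log2 fold change 1.10, SE 0.19, adjusted p = 2.64e-07). Its relatives had lower calls: Ccnd1 had 4 of 7 lower and Ccnd2 2 of 4, 1 each by DESeq2. Neither had a higher call in the main edgeR test or by DESeq2. The Ccnd1 region of smallest p, 41.7 kb from the gene, had 3.65 and 3.319 CPM in proNeu2 and 19.4 and 18.5 CPM in cMoP (log2 fold change -2.41, SE 0.42, adjusted p = 1.63e-07). The strongest Ccnd2 region was not called, at 42.0 and 55.1 CPM in proNeu2 and 36.0 and 35.9 CPM in cMoP (log2 fold change 0.43, SE 0.19, adjusted p = 0.0551). E2f2, a factor of S-phase entry, had 4 of 6 higher, 1 by DESeq2, led by 60.8 and 60.4 CPM in proNeu2 and 29.6 and 25.3 CPM in cMoP (log2 fold change 1.14, SE 0.20, adjusted p = 1.53e-07).

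Housekeeping genes were higher as well (median log2 0.63, and 0.41 with loess offsets). Of 34 regions 20 were higher (58.8%) and 2 lower (5.88%), beside 25.2% and 27.4% of all tested regions. DESeq2 called 13 higher and 1 lower. The region in Actb, for beta-actin, had 226 and 218 CPM in proNeu2 and 131 and 106 CPM in cMoP (log2 fold change 0.91, SE 0.12, adjusted p = 4.44e-11). The start-site region of Rpl13a, a ribosomal protein, had 98.5 and 123 CPM in proNeu2 and 52.1 and 54.9 CPM in cMoP (log2 fold change 1.05, SE 0.16, adjusted p = 1.43e-09). Changes of about 1 log2 unit at other start sites, such as those of Mpo and Cebpb, stood beside these values, whereas those of Ltf, Lcn2, S100a9 and Ngp were 2.75, 3.21, 3.99 and 4.38. There were 4 lists of markers of other cells. B cell markers had 5 higher (29.4%) and 5 lower (29.4%) of 17 regions. T and NK cell markers had 6 (22.2%) and 10 (37.0%) of 27. Erythroid and megakaryocyte markers had 7 (41.2%) and 3 (17.6%) of 17. Mast cell, basophil and eosinophil markers had 4 (16.7%) and 7 (29.2%) of 24. In the T and NK cell list 4 genes had higher calls only and 5 had lower calls only. Lck, a T cell kinase, was among the former, with 41.3 and 40.5 CPM in proNeu2 against 11.3 and 12.1 CPM in cMoP (log2 fold change 1.80, SE 0.25, adjusted p = 2.04e-10). Nkg7, a granule protein of cytotoxic cells, was counted in the primary granule list and not in these 4. It had 52.3 and 50.4 CPM in proNeu2 against 10.8 and 8.97 CPM in cMoP (log2 fold change 2.37, SE 0.25, adjusted p = 6.12e-17).

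Start-site regions were called higher more often than the others at high levels and less often at low levels. Among regions linked to a gene with a listed start site, regions within 1 kb of one were higher in 42.4% and lower in 12.7% of 9604 cases. Regions in gene bodies were higher in 21.6% and lower in 31.1% of 14729 cases, and regions outside genes in 20.6% and 28.7% of 9753 cases. Start-site regions took 46.9 and 46.6% of counts in proNeu2 libraries, against 40.4 and 37.8% in cMoP libraries. The split moved with level: in the highest of 5 level classes 55.8% of start-site regions and 43.8% of gene-body regions were higher. In the lowest class 5.73% and 16.7% were, and in the 3 lower classes start-site regions were more often lower (29.5 to 37.8%) than higher (5.73 to 12.4%). Gene-body regions and regions outside genes were also more often lower than higher in those 3 classes. In the lowest class 40.7% of gene-body regions and 39.4% of regions outside genes were lower, beside 37.8% of start-site regions. With loess offsets the medians of the 3 kinds of region came close to each other when all levels were pooled. They were 0.07 for start sites, 0.05 for gene bodies and 0.06 outside genes. Within some level classes they stood further apart. In class 2 (5 being the highest) they were -0.15 for start sites and 0.11 for gene bodies, and in class 4 they were 0.23 and 0.0019. Promoter windows of low GC were higher less often, at 33.7% in the lowest of 5 GC classes and 43.6 to 53.2% in the others. The part of level, GC and start-site share in the results of the gene lists was not tested.

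Chromosomes also differed in their median. It was highest on chromosome 19 (log2 0.43) and 11 (0.40), and lowest on chromosome 3 (-0.47) and X (-0.41). On chromosome X, 9.20% of 1130 regions were higher and 34.7% were lower, while on chromosome 19 40.7% of 1308 were higher and 17.6% lower. Loess offsets kept the order of these 4, at 0.43, 0.38, -0.35 and -0.33. The same medians between the 2 libraries of cMoP (replicate 1 over 2) were 0.10, 0.03, 0.02 and -0.02, and those between the 2 proNeu2 libraries were at most 0.06 in size on every chromosome but Y, which had 7 regions and -0.07. Also not given in the sources used here was the sex of the animals. Scaling each chromosome by its own TMM factors gave 11630 higher and 12822 lower calls, of which 22240 were shared with the 25009.

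**Figure D4:**
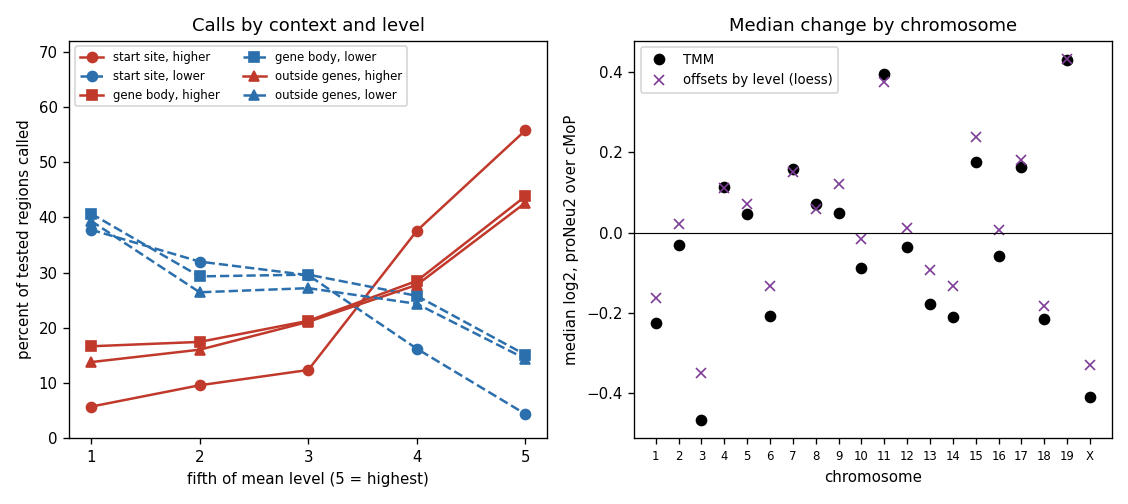
The left panel gives the percent of tested regions called higher (red, solid) and lower (blue, dashed) in proNeu2 for start-site, gene-body and outside regions by class of mean level (5 classes of equal size). The right panel gives the median log2 fold change of proNeu2 over cMoP per chromosome with TMM scaling (dots) and with loess offsets by level (crosses). The higher share climbs with level in each class, and chromosomes 11 and 19 lie above 0 while 3 and X lie below it under both scalings.

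Within single loci, elements moved in opposite directions. Of 14624 genes with a tested region, 5056 had higher calls only, 3523 lower calls only, 2154 both and 3891 none. Gfi1 encodes a repressor that the neutrophil branch needs, and 3 of its 5 regions were higher and 1 lower. Its region 26.7 kb downstream of the start site, chr5:107698458-107699821, had 80.3 and 77.7 CPM in proNeu2 and 18.8 and 16.9 CPM in cMoP (log2 fold change 2.14, SE 0.20, adjusted p = 5.09e-20). The region 17.4 kb downstream, chr5:107707844-107708884, had 2.43 and 2.66 CPM in proNeu2 and 28.5 and 21.6 CPM in cMoP (log2 fold change -3.26, SE 0.42, adjusted p = 2.92e-12). These neighbouring elements were more open in opposite groups, and the start-site region was higher at 55.9 and 64.4 CPM in proNeu2 and 40.9 and 33.8 CPM in cMoP (log2 fold change 0.69, SE 0.18, adjusted p = 8.27e-04), a call that ended with loess offsets (adjusted p = 0.0893).

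Cebpa too had calls of both directions, around a start site that was called with loess offsets alone (lower, log2 -0.36, adjusted p = 0.0165). Its region 20.1 kb upstream, chr7:35098384-35099937, had 4.26 and 6.64 CPM in proNeu2 and 32.3 and 38.5 CPM in cMoP (log2 fold change -2.70, SE 0.32, adjusted p = 1.22e-13). Its region 7.94 kb downstream had 12.8 and 13.9 CPM in proNeu2 and 5.38 and 8.97 CPM in cMoP (log2 fold change 0.88, SE 0.37, adjusted p = 0.0365), and this call ended in 7 of 16 alternatives, DESeq2 (adjusted p = 0.225) among them. At Irf8, the one higher region lay 4.83 kb downstream of the start site and had 13.4 and 11.9 CPM in proNeu2 and 4.30 and 8.45 CPM in cMoP (log2 fold change 0.98, SE 0.39, adjusted p = 0.0244), a call that DESeq2 did not make (adjusted p = 0.175). Itgam encodes CD11b, carried by both lineages. Its start-site region chr7:128062257-128063973 had 48.0 and 56.4 CPM in proNeu2 and 22.0 and 28.0 CPM in cMoP (log2 fold change 1.06, SE 0.21, adjusted p = 3.66e-06), and its region 13.6 kb upstream, chr7:128048548-128049502, had 3.04 and 3.98 CPM in proNeu2 and 34.4 and 39.6 CPM in cMoP (log2 fold change -3.38, SE 0.35, adjusted p = 3.5e-17).

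**Figure D5:**
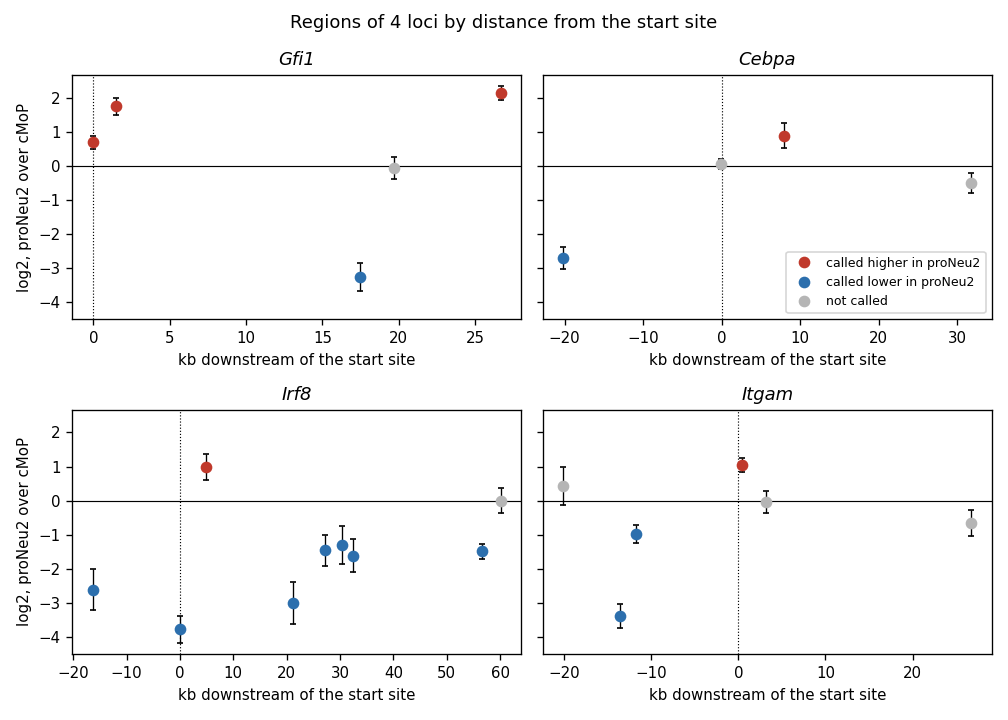
Log2 fold change of proNeu2 over cMoP, with its SE, for each tested region of Gfi1, Cebpa, Irf8 and Itgam by distance from the first listed start site in kb, positive downstream. Red points were called higher in proNeu2, blue lower, and grey points were not called; each locus holds at least 1 region of either direction.

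Some genes gathered many calls, mostly of 1 direction, beside 25.2% higher and 27.4% lower of all tested regions. Genes were picked here by their number of calls, which favours genes with many regions. Atrnl1 had 13 higher of 17, Erg 10 of 22, Nt5c2 10 of 11, Slc39a11 10 of 21 and Itpkb 9 of 13, and these 5 also had 2, 2, 1, 3 and 2 lower calls. In the lower direction Maml2 had 15 of 17, Slc9a9 15 of 18, Slc8a1 14 of 14, Stxbp6 13 of 14 and Ank2 12 of 15, and none of these 5 had a higher call. Maml2 encodes a Notch coactivator, and its region of smallest p had 3.65 and 5.31 CPM in proNeu2 and 23.7 and 23.2 CPM in cMoP (log2 fold change -2.38, SE 0.37, adjusted p = 9.18e-09). Slc8a1 encodes a sodium-calcium exchanger, and its region of smallest p had 1.82 and 1.33 CPM in proNeu2 and 26.3 and 26.9 CPM in cMoP (log2 fold change -4.00, SE 0.45, adjusted p = 6.1e-15). Itpkb encodes an inositol phosphate kinase, and its region of smallest p had 45.6 and 50.4 CPM in proNeu2 and 8.06 and 5.81 CPM in cMoP (log2 fold change 2.78, SE 0.28, adjusted p = 1.9e-18). Wwox had 7 higher and 7 lower of 27, Elmo1, an engulfment and motility factor, 7 and 8 of 23, and Pde4d, a cAMP phosphodiesterase, 6 and 10 of 39. The shares at Wwox were near those of all tested regions, and the higher share at Pde4d was below that of all tested regions. Within Elmo1, chr13:20093257-20094235 had 48.0 and 65.7 CPM in proNeu2 and 17.7 and 15.3 CPM in cMoP (log2 fold change 1.77, SE 0.22, adjusted p = 9.01e-13), whereas chr13:20313256-20314175 had 1.82 and 1.99 CPM in proNeu2 and 23.7 and 23.8 CPM in cMoP (log2 fold change -3.59, SE 0.45, adjusted p = 1.81e-12).

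A small number of regions had reads in only 1 of the 2 groups compared, whatever the other groups of the series held. In the 61196 regions, 218 had 0 counts in both cMoP libraries and 829 had 0 counts in both proNeu2 libraries, and 61 and 208 of these were tested. Folds are then lower bounds, with the empty group put at a floor of 3 counts in its 2 libraries together. The start-site region of Ttc24, chr3:88077223-88078019, had 20.7 and 18.6 CPM in proNeu2 and 0 in both cMoP libraries, at least 24.6-fold higher. A region in Atp6v0d2, which encodes a subunit of the proton pump, chr4:19913676-19914886, had 21.3 and 17.3 CPM in proNeu2 and 0 in both cMoP libraries, at least 24.2-fold higher. These regions were open in both proNeu2 libraries. The Ttc24 region also averaged 20.4 CPM in proNeu1 and 10.1 CPM in GMP-MoP, and the Atp6v0d2 region 14.7 and 4.29 CPM. In the other direction, a region in the cadherin gene Fat3, chr9:16363483-16364456, had 0 in both proNeu2 libraries and 30.1 and 21.6 CPM in cMoP, at least 27.1-fold lower. A region in Pla2g4a, which encodes the phospholipase that frees arachidonic acid, chr1:149840648-149841644, had 0 in both proNeu2 libraries and 28.0 and 21.6 CPM in cMoP, at least 26.0-fold lower. A region 5.54 kb from Pdcd1, for the checkpoint receptor PD-1, chr1:94058089-94059026, had 0 in both proNeu2 libraries and 23.7 and 25.9 CPM in cMoP, at least 26.0-fold lower. In proNeu1 and GMP-MoP the Fat3 region averaged 0 and 5.82 CPM. The Pla2g4a region averaged 1.74 and 14.6 CPM there, and the Pdcd1 region 2.79 and 17.1 CPM.

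Some of the strongest regions were not called by this test. The 5 strongest that were not called were at Sp4, Zbtb20, Ripk2, Hjurp and Lnpep, with log2 fold changes from 0.00043 to 0.24. The Sp4 start-site region had 336 and 329 CPM in proNeu2 and 311 and 268 CPM in cMoP (log2 fold change 0.20, SE 0.11, adjusted p = 0.100). The Hjurp start-site region had 217 and 254 CPM in proNeu2 and 238 and 232 CPM in cMoP (adjusted p = 0.998), so the groups overlapped there. With loess offsets all 5 were called lower, with log2 fold changes from -0.51 (Hjurp, adjusted p = 5.08e-08) to -0.27 (Lnpep, adjusted p = 0.00517).

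At the microRNA genes whose sequences are given above, the strongest region within 5 kb of the miR-223 gene, at chrX:96244329-96246053, had 91.2 and 118 CPM in proNeu2 and 71.0 and 59.6 CPM in cMoP (log2 fold change 0.68, SE 0.15, adjusted p = 5.67e-05). With loess offsets that call ended (adjusted p = 0.0991). miR-223 is the microRNA best known from neutrophils, and it was open in both groups. The region by the miR-142 gene, at chr11:87755090-87755854, had 77.8 and 70.4 CPM in proNeu2 and 33.3 and 32.7 CPM in cMoP (log2 fold change 1.17, SE 0.18, adjusted p = 7.18e-09). Lower in proNeu2 was the region over the miR-155 gene, at chr16:84712976-84714533, with 7.30 and 5.31 CPM in proNeu2 and 15.6 and 13.2 CPM in cMoP (log2 fold change -1.17, SE 0.38, adjusted p = 0.00651), a call that DESeq2 did not make (adjusted p = 0.115). The region beside the miR-511 gene, within Mrc1 at chr2:14261776-14262817, had 0 and 0.664 CPM in proNeu2 and 10.2 and 22.2 CPM in cMoP. That is 1 count in proNeu2 and a cMoP over proNeu2 ratio of 51.2 (95% exact counting interval 8.85 to 2055), so the region was near closed in proNeu2. Of 6 more myeloid microRNA genes, the strongest regions by miR-22 and miR-27a were higher (log2 fold change 1.01 and 0.64), and the call at miR-27a ended with loess offsets (adjusted p = 0.139). Those by miR-21a and miR-196b were not called, though 1 of the 3 regions by miR-21a was higher, and no tested region lay within 5 kb of miR-146a and miR-125a.

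The letters of the motifs were then counted over all promoter windows of 300 bases, 250 before and 50 after a start site. Of 21238 windows, 10.2% held the C/EBP motif, 3.13% the PU.1 motif and 21.7% the IRF motif, on either strand, and matches of different motifs may share bases. Over regions higher in proNeu2 (5167 windows) the shares were 7.64, 2.98 and 14.7%. Over lower regions (1224 windows) they were 10.3, 4.82 and 21.7%, and over regions that were not called (4887 windows) they were 7.76, 3.27 and 17.9%. Mean GC was 63.1, 60.4 and 60.9% in these sets. As a full set, the promoters of higher regions did not hold the C/EBP letters more often than those of lower or uncalled regions. Among regions higher by at least 2 fold (1017 windows) the C/EBP share was 9.83%, which was above that of uncalled regions. It was 11.1% among regions lower by at least 2 fold (738 windows). No test was made of these shares.

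The other two groups stood between these in median level at the called regions, given as levels only. The regions were picked for a difference between proNeu2 and cMoP, and that choice by itself favours levels in between for any other group. Over the higher regions the median level was 29.7 CPM in proNeu2, 25.7 in proNeu1, 16.9 in GMP-MoP and 13.3 in cMoP. Over the lower regions it was 3.51 CPM in proNeu2, 4.88 in proNeu1, 10.2 in GMP-MoP and 14.4 in cMoP. At the S100a9 start site, proNeu1 averaged 53.7 CPM and GMP-MoP 5.74 CPM; at the Irf8 start site they averaged 4.50 and 25.7 CPM. Tested directly, proNeu2 and proNeu1 differed at 36 of 47506 regions (0.0758%), 4 higher and 32 lower in proNeu2. Of the 4, named after their values were seen, 3 lay at Armcx1, Pgbd5 and Stmn1. Near Stmn1, a microtubule regulator, chr4:134480564-134481626 had 68.1 and 71.0 CPM in proNeu2 and 48.2 and 31.9 CPM in proNeu1 (log2 0.80, adjusted p = 0.0462), and 68.1 and 71.0 CPM in proNeu2 against 4.30 and 3.17 CPM in cMoP (log2 fold change 4.19, SE 0.29, adjusted p = 8.44e-33). Among the 32 lower regions, one 4.26 kb from Blnk had 1.22 and 1.99 CPM in proNeu2 and 8.50 and 14.9 CPM in proNeu1 (log2 -2.83, adjusted p = 0.0115).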

How the data were processed

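Per the submitters' processing notes, the authors worked on mm10 with edgeR 3.32.1, HOMER 4.11 and Bowtie2 2.3.5.1, whose roles are not stated. The deposited files hold whole-number counts per region, taken as raw counts since totals differ between libraries. Not given in the sources used here are the Tn5 shift, the read filters, the counting and whether regions came from pooled libraries. Regions had a median width of 832 bp. Totals cover these regions only, PCR reads are not independent molecules, and intervals and floors cover counting error only.

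Counts of all 8 libraries were fitted in edgeR 4.0.16 (R 4.3.3) with TMM factors, filterByExpr at a minimum count of 10 and a robust quasi-likelihood fit (1 coefficient a group). The contrast was proNeu2 minus cMoP, and p-values were adjusted by Benjamini-Hochberg over 47506 regions. SE is the size of the log2 fold change over the root of its F statistic. Scripts were tested on simulated counts. The test uses counts, so regions of low count pass it less often.

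Of 61196 regions, 53906 (88.1%) were linked to a RefSeq protein-coding gene interval within 50 kb, ties by the nearest start site. Start sites came from a RefSeq promoter table that holds 17492 of 21900 genes, so a gene without one, such as Cebpe, has no start-site class; start sites took the place of the gene ends that the plan had named. Members and the 14 gene lists were chosen with earlier results of these data known. Named regions are the strongest region of each of 57 lineage genes, the 10 largest changes and the 5 one-group regions per direction, all regions of 8 loci and of the genes of the marker check or of mixed result, the genes with most calls, the 5 strongest uncalled regions and, per list, the region of smallest p of 2 genes per direction. Alternatives were RLE and total-count scaling, loess offsets (limma 3.58.1), no filter, a minimum count of 30, the 4 libraries alone, DESeq2 1.42.0, glmTreat at 1.5 fold, a replicate block, proNeu2 summed, each library left out, and TMM per start-site class or per chromosome; the last pair was chosen after seeing the data. A few genes that these rules name are not reported here.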

Additional observations from a re-analysis of the deposited data

How the results depend on the processing

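The count of 25009 called regions stayed within 1.5 times under RLE, total-count and loess scaling, without the filter, in the 4 libraries alone, with proNeu2 summed and with TMM per start-site class or chromosome. It was 11130 (5331 higher, 5799 lower) of 20114 regions at a minimum count of 30, 14505 (6600 and 7905) with DESeq2, and 15550 (5997 and 9553) with glmTreat at 1.5 fold; fewer regions were tested in the first and a larger fold was asked for in the last, and the cause was not tested for DESeq2. Leaving out each library gave 20517 to 23607. Calls on regions of the gene lists were 275, 340 and 346 in those 3 settings, and 342 when only regions within 1 kb of a gene were linked. Start-site calls were 2923 with DESeq2 and 1895 with glmTreat. Shares of calls that were higher ran from 38.6% (glmTreat) to 50.9% (loess).

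The replicate block gave 25275 calls, of which 24944 were shared with the 25009, and ended no call at a named region. Replicate numbers did not pair the samples: deviations of same-numbered proNeu2 and cMoP libraries correlated at 0.0115.

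Of 157 called named regions, 108 were tested in each of the 16 alternatives (the others fell under the minimum count of 30), and 92 of them kept their call in each. None of the 157 reversed its call where tested. DESeq2 ended 18, glmTreat 23, loess offsets 9, and leaving out 1 library 7 to 10. Depth limits low regions: a group at 0 counts allows up to 0.952 CPM in proNeu2 and 0.799 CPM in cMoP.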

Other observations

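Single regions of lymphoid marker genes, whose list counts stand above, differed in both directions. A region 4.37 kb from Cd2, a T and NK cell adhesion receptor, had 0.608 and 0.664 CPM in proNeu2 and 11.3 and 15.8 CPM in cMoP, which makes a cMoP over proNeu2 ratio of 21.4 (95% exact counting interval 5.63 to 181). In Gata3, a T cell and innate lymphoid factor, the start-site region had 15.8 and 16.6 CPM in proNeu2 and 55.4 and 49.6 CPM in cMoP (log2 fold change -1.69, SE 0.23, adjusted p = 3.48e-11, edgeR). In Ebf1, a B cell factor, a region in the gene went the other way, with 10.9 and 11.9 CPM in proNeu2 and 0.538 and 1.58 CPM in cMoP (log2 fold change 3.33, SE 0.59, adjusted p = 3.64e-07). Tcf7, a T cell factor, had 16.4 and 23.9 CPM in proNeu2 and 3.23 and 1.06 CPM in cMoP (log2 fold change 3.19, SE 0.45, adjusted p = 2.17e-10).

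Genes of basophils and eosinophils were mixed too. Hdc, the histamine-forming enzyme, had 24.3 and 24.6 CPM in proNeu2 and 2.69 and 2.11 CPM in cMoP (log2 fold change 3.31, SE 0.41, adjusted p = 7.71e-13), and the start-site region of Mcpt8, a basophil protease, had 6.08 and 10.6 CPM in proNeu2 and 1.61 and 1.58 CPM in cMoP (log2 fold change 2.32, SE 0.59, adjusted p = 4.4e-04). A region 24.4 kb from the eosinophil chemokine receptor gene Ccr3 had 6.08 and 6.64 CPM in proNeu2 and 21.5 and 16.9 CPM in cMoP (log2 fold change -1.58, SE 0.36, adjusted p = 6.27e-05), and one near Il5ra, for the interleukin-5 receptor, had 1.82 and 1.99 CPM in proNeu2 and 11.3 and 15.8 CPM in cMoP (log2 fold change -2.78, SE 0.51, adjusted p = 1.01e-06). Whether other cells in the sorts take part in these values was not tested.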
